A study of Homo sapiens with 24 samples.

Results

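The line by time interaction at 48 h is the change in RNA that MYC-ER cells made after 48 h of 4-hydroxytamoxifen (4-OHT) beyond the change that parental cells made under the same treatment. It was formed on the log2 scale as MYC-ER at 48 h minus MYC-ER at 0 h, less parental at 48 h minus parental at 0 h, and it rests on 12 of the 24 libraries in the study, 3 in each of these 4 groups. Both lines are MCF-10A, an immortalised human mammary epithelial cell line that forms no tumours. The parental cells are wild type, and the others carry MYC-ER, in which MYC, a transcription factor, is joined to an oestrogen receptor's ligand-binding portion. The labels give neither the species of the fused sequences, nor the promoter that drives them, nor whether the carrying line is a clone. Cells of both lines grew on Matrigel, a basement membrane gel, in 3-dimensional culture. The 48 h groups received 1 µM 4-OHT for the last 48 h, the 0 h groups received none, and all groups were collected together on day 5. The labels name no vehicle for the 0 h cultures, and nothing in them says that the replicates were separate experiments. Every p-value therefore measures the spread between libraries, estimated for each gene over all 24 of them and not over these 12 alone.

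MYC binds DNA at E-box sequences as a dimer with MAX and is known for raising transcription of genes for ribosome production, nucleotide synthesis and entry into the cell cycle. In a MYC-ER line the fusion protein is held out of action by chaperones until 4-OHT binds its receptor part, so the drug switches MYC activity on in that line, while parental cells receive only the drug. In 3-dimensional culture MCF-10A cells form spheres in which proliferation slows and the cells in contact with the matrix keep basal features.

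The 12 libraries held 136860029 to 182438505 counts each, and Spearman correlations between replicates across the genes tested ran from 0.983 to 0.992. The basal mammary epithelial list was present in every group, with all 7 markers above 1 CPM (a gene's count as its share of the library, adjusted for library composition) and summed levels of 10809 to 30448 CPM. Of 7 leukocyte markers 3 were at 0 in all 12 libraries, PTPRC and CD3E among them, while CD68, CD14 and ITGAM were detected and the list summed to 12.8 to 23.5 CPM. The adipocyte markers ADIPOQ and LEP and the vessel marker CDH5 were also at 0 in all 12, in lists that summed to 0.325 to 2.21 CPM and 0.0928 to 2.99 CPM. The count at MYC was not higher in the fusion line. It was 394, 378 and 388 CPM in MYC-ER cells at 0 h and 244, 247 and 253 CPM at 48 h, against 462, 535 and 599 and 486, 534 and 556 CPM in parental cells. The interaction at MYC was −0.62 ± 0.09 (SE; edgeR adjusted p = 1.70e-05). ESR1 stayed below 1 CPM in all 4 groups, with an interaction of −0.20 ± 0.66 (SE; edgeR adjusted p = 0.846) that was 0.10 with GC and length trends removed. Whether reads of the fusion are counted at either gene was not tested. Mitochondrial transcripts took 9.24 to 9.71% of counts in MYC-ER cells at 0 h and 6.57 to 6.78% at 48 h. In parental cells they took 3.86 to 7.28% and then 6.59 to 7.78%. The parental change followed the GC content of the longest transcript across 9784 genes (Spearman's rho −0.65) and its length (0.60), whereas the MYC-ER change did so little (0.03 and −0.10). The interaction accordingly followed GC content with a rho of 0.46 and length with −0.47. These are descriptions across genes of the same libraries. For the list counts, the list medians and the genes named by rule, the text gives beside each result a value, with the GC trend or the GC and length trends taken out of every library, that differed from it by over 1.5 times.

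Of 22158 genes tested, 9970 (45.0%) passed an adjusted p of 0.05 in the interaction by edgeR's quasi-likelihood test with Benjamini-Hochberg adjustment. In 5239 genes (23.6%) the interaction was positive, meaning that MYC-ER cells moved higher than parental cells did, and in 4731 (21.4%) it was negative. More of the large interactions were positive. At 2-fold or more 3296 genes (14.9%) passed, 2299 positive and 997 negative, and at 8-fold or more the counts were 600 and 102. These counts set no limit on level beyond the filter for genes tested, and interactions ran from −15.66 to 13.21. Their split by direction was not repeated under other settings. Positive genes were 52.5% of the calls under the scaling used, 63.5% with library size alone and 46.8% with the GC trend removed. Library size alone also moved the median of all genes from 0.07 to 0.17. The split by direction therefore rests on the scaling, and single genes below are read against that median.

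The 2 terms of the interaction contributed unequally. In MYC-ER cells 9772 genes (44.1%) differed between 48 h and 0 h, and in parental cells 8978 (40.5%) did. Among the 3296 genes at 2-fold or more the MYC-ER change was the larger in 2636 (80.0%) and the parental change in 660. Across all 9970 calls the MYC-ER change was the larger in 5783 (58.0%) and the parental in 4187. Both lines changed in opposite directions in 2329 of the 9970 calls and in the same direction in 841. The MYC-ER change alone passed its own test in 3545, the parental change alone in 2900, and neither in 355. A called interaction thus did not always mean a change in the MYC-ER cells.

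**Figure D1:**
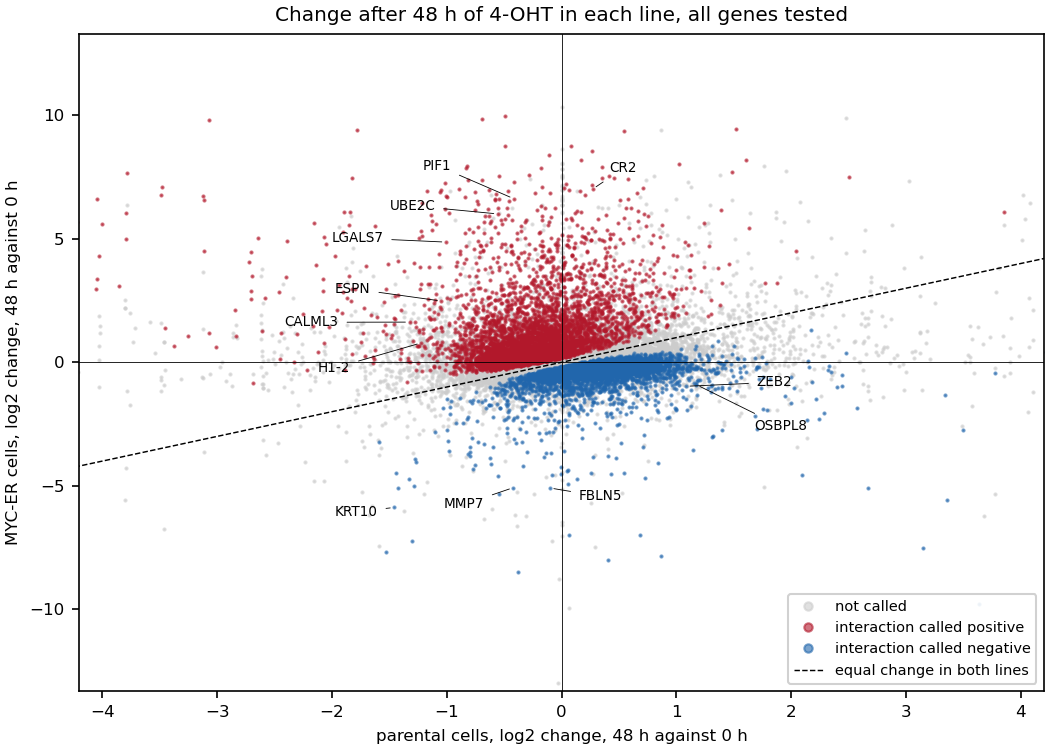
Log2 change after 48 h of 4-OHT in parental cells (horizontal) and MYC-ER cells (vertical), 1 point per gene tested, coloured by the call in the interaction, with the dashed line marking equal change in both lines. The cloud of positive calls reaches further from the dashed line than the negative one, CR2 and PIF1 lie near the top and KRT10 and FBLN5 near the bottom, and 193 genes fall outside the horizontal range.

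The same interaction is also the line difference at 48 h minus the line difference at 0 h, and on that reading most large interactions brought the lines closer. Among the 2299 positive genes at 2-fold or more, the median log2 difference of MYC-ER from parental cells went from −1.75 at 0 h to 0.19 at 48 h. Among the 997 negative genes it went from 1.37 to −0.10. The difference was smaller at 48 h in 1587 of the 2299 and 804 of the 997, together 2391 of 3296 (72.5%), beside 13461 of all 22158 genes (60.8%). The median absolute difference over all genes was 0.69 at 0 h and 0.52 at 48 h. Both differences enter the interaction, so these values describe it and do not test it. In bulk RNA, fewer cells of a kind and less RNA per cell cannot be told apart.

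The 10 largest positive interactions among genes of at least 10 CPM were mostly genes of mitosis and DNA synthesis that were nearly silent in untreated MYC-ER cells. PIF1 (ENSG00000140451.13, chr15:64815632-64827062 in GRCh38.p14), a DNA helicase, stood at 0.186, 0.0567 and 0.163 CPM in MYC-ER cells at 0 h and at 13.98, 13.03 and 13.1 CPM at 48 h. Parental cells held 19.3, 20.4 and 21.2 CPM and then 16.4, 16.9 and 12.3 CPM. The 3 untreated MYC-ER libraries lay below all 9 others, while MYC-ER and parental libraries overlapped at 48 h. The log2 interaction was 7.04 ± 0.29 (SE; edgeR adjusted p = 2.68e-14), the MYC-ER change of 6.62 less the parental change of −0.42.

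UBE2C (ENSG00000175063.17, chr20:45812644-45816952), the ubiquitin-conjugating enzyme of the anaphase-promoting complex, rose from 0.261, 0.352 and 0.374 to 21.5, 21.8 and 20.3 CPM in MYC-ER cells. In parental cells it fell from 48.4, 45.04 and 58.4 to 35.5, 33.4 and 34.5 CPM. The MYC-ER libraries at 48 h remained below the parental ones, with no overlap, and the interaction was 6.56 ± 0.15 (SE; edgeR adjusted p = 1.26e-18). CDC20, the activator of the same complex, went from 0.868–1.29 to 52.8–56.9 CPM in MYC-ER cells and from 136–172 to 101–115 CPM in parental cells, an interaction of 6.27 ± 0.14 (SE; edgeR adjusted p = 1.08e-18). BIRC5, the chromosomal passenger protein survivin, had 6.36 ± 0.17 (SE; edgeR adjusted p = 3.06e-17). KIF2C, a kinesin that takes microtubules apart at centromeres, had 6.29 ± 0.13 (SE; edgeR adjusted p = 1.00e-18). NEK2, a centrosomal kinase, and TROAP, a spindle-associated protein, had 6.41 and 6.42. TK1, the thymidine kinase made in S phase, had 6.22 ± 0.16 (SE; edgeR adjusted p = 1.19e-17), rising from 0.216–0.301 to 11.4–11.96 CPM where parental cells held 38.96 to 53.9 and then 26.2 to 30.9 CPM. All of these 8 genes started over 6 log2 units below parental cells at 0 h and ended between −1.31 (TK1) and −0.19 (PIF1).

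CR2 and LGALS7B were the other two of the 10. CR2 (ENSG00000117322.17, chr1:207454328-207489892), the complement receptor best known on B cells, was at 0.0928, 0.204 and 0.128 CPM in untreated MYC-ER cells and at 18.6, 19.2 and 17.5 CPM at 48 h. Parental cells held 0.153, 0.171 and 0.113 and then 0.230, 0.185 and 0.104 CPM. The log2 line difference was −0.04 at 0 h, where the groups overlapped, and 6.70 at 48 h, an interaction of 6.74 ± 0.71 (SE; edgeR adjusted p = 1.32e-07). The leukocyte markers PTPRC and CD3E were at 0 in every library, but CD68, CD14 and ITGAM were not. LGALS7B encodes galectin-7, a lectin of stratified epithelia, and went from 0.650, 0.754 and 0.963 to 32.4, 30.4 and 26.4 CPM in MYC-ER cells while parental cells fell from 30.3, 17.9 and 32.5 to 12.5, 17.2 and 15.2 CPM. Its interaction was 6.08 ± 0.31 (SE; edgeR adjusted p = 1.16e-12), and 5.42 with GC and length trends removed. LGALS7 and LGALS7B are near-identical copies, and how reads were shared between them is not given in the sources used here, so their split is uncertain.

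The 10 largest negative interactions among genes of at least 10 CPM in the highest group and 10 counts in each library were genes that stood far above parental cells in untreated MYC-ER cells. FBLN5 (ENSG00000140092.14, chr14:91869411-91947694), the elastic fibre protein fibulin-5, fell in MYC-ER cells from 48.96, 52.6 and 50.1 to 1.37, 1.41 and 1.67 CPM. Parental cells held 1.42, 1.22 and 1.59 and then 1.17, 1.36 and 1.41 CPM. At 48 h the MYC-ER libraries overlapped the parental ones, and the interaction was −4.98 ± 0.19 (SE; edgeR adjusted p = 9.24e-15). MMP7, the metalloproteinase matrilysin, had the same shape, from 13.3–14.3 to 0.340–0.462 CPM beside parental libraries of 0.491 to 0.668 and 0.369 to 0.491 CPM, an interaction of −4.65 ± 0.25 (SE; edgeR adjusted p = 3.52e-12).

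KRT10 (ENSG00000186395.8, chr17:40818117-40822614), a keratin of cells leaving the basal layer, fell from 5722, 6316 and 5811 to 101, 96.7 and 106 CPM in MYC-ER cells. It also fell in parental cells, from 563, 533 and 523 to 219, 183 and 188 CPM. The MYC-ER line began 3.46 log2 units above parental cells and ended 0.96 below them, with an interaction of −4.42 ± 0.14 (SE; edgeR adjusted p = 3.37e-16). KRT16, a keratin of activated epidermis with close pseudogenes and so an uncertain count, went the same way in both lines, with an interaction of −3.04 ± 0.14 (SE; edgeR adjusted p = 1.31e-13). MME, the membrane endopeptidase CD10 found on basal and myoepithelial breast cells, fell from 262–278 to 19.5–21.99 CPM in MYC-ER cells. Parental cells held 6.06 to 8.98 and then 5.83 to 7.91 CPM, so MYC-ER cells stayed the higher at 48 h by 1.57 log2 units, and the interaction was −3.59 ± 0.19 (SE; edgeR adjusted p = 2.65e-12). NALCN, a sodium leak channel, had −4.04 and NID1, the basement membrane linker nidogen-1, −3.55. C5AR2, a receptor for complement C5a, had −3.32 and HECW2, a ubiquitin ligase, −3.01. KRT10, C5AR2 and KRT16 ended below parental cells, while NALCN, MME, NID1 and HECW2 ended above them by 1.06 to 1.57 log2 units.

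**Figure D2:**
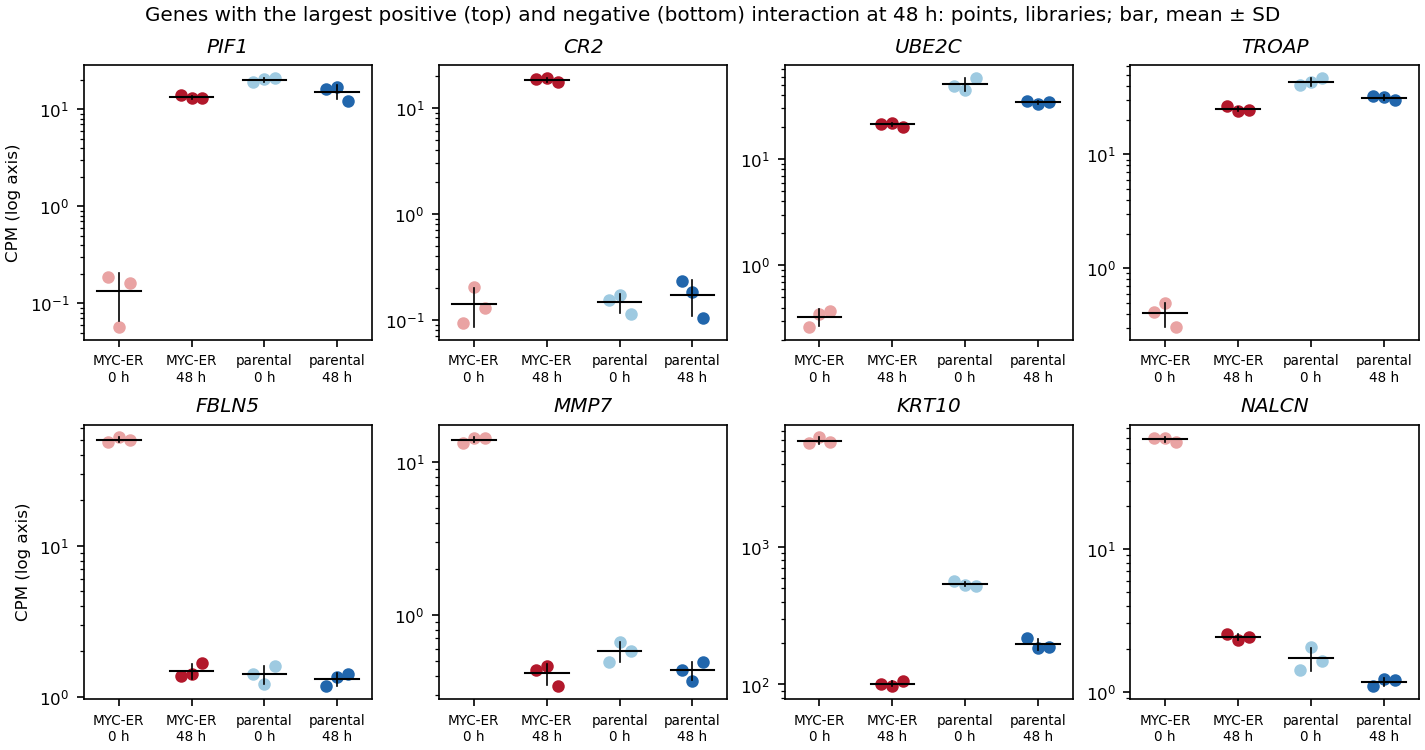
CPM on a log axis for the 4 genes with the largest positive (top row) and the 4 with the largest negative interaction (bottom row), 1 point per library in each of the 4 groups, with bars for the mean ± SD of 3 libraries. In 7 of the 8 panels untreated MYC-ER libraries stand apart and the 48 h libraries sit nearer to the parental ones; CR2 is the exception, high only in MYC-ER cells at 48 h.

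Some interactions came from opposite changes in both lines. CALML3, a calmodulin-like protein of squamous epithelium, rose from 3.62, 3.72 and 4.22 to 12.2, 12.3 and 11.2 CPM in MYC-ER cells and fell from 9.23, 6.42 and 9.97 to 3.53, 3.49 and 3.20 CPM in parental cells. The line that was lower at 0 h was the higher at 48 h, without overlap, and the interaction was 2.95 ± 0.20 (SE; edgeR adjusted p = 1.18e-10). ESPN, the actin-bundling protein espin, rose from 3.32–4.52 to 20–23.9 CPM and fell from 3.36–4.99 to 1.76–2.22 CPM, with 3.53 ± 0.26 (SE; edgeR adjusted p = 4.18e-10). LGALS7 moved as LGALS7B did, with 5.87 ± 0.28 (SE; edgeR adjusted p = 4.41e-13). In the other direction ZEB2, a repressor tied to the mesenchymal state, fell from 35.9, 37.3 and 34.4 to 17.4, 18.9 and 18.6 CPM in MYC-ER cells. In parental cells it rose from 4.03, 5.35 and 3.15 to 8.87, 9.43 and 8.24 CPM, and the interaction was −2.05 ± 0.17 (SE; edgeR adjusted p = 4.17e-09). VGLL3, a TEAD cofactor, had −2.03 ± 0.27 (SE; edgeR adjusted p = 2.82e-06).

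In another set the parental change was the larger term. OSBPL8, a lipid transfer protein, was at 32.8, 60.1 and 23.4 CPM in parental cells at 0 h and 85.1, 80.5 and 96.5 CPM at 48 h. MYC-ER cells went the other way, from 151, 159 and 137 to 78.7, 81.2 and 79 CPM, giving −2.08 ± 0.28 (SE; edgeR adjusted p = 3.35e-06). The 3 parental libraries at 0 h were the most spread of the 4 groups at this gene, and all lay below those at 48 h. ROS1, a receptor tyrosine kinase, showed 89.6 to 158 and then 232 to 264 CPM in parental cells, with −1.96 ± 0.17 (SE; edgeR adjusted p = 6.36e-09), and SLC16A7, a monocarboxylate carrier, had −1.95 ± 0.28 (SE; edgeR adjusted p = 9.81e-06). H1-2, a replication-dependent linker histone whose transcripts mostly lack a poly(A) tail, fell from 24.03–36.03 to 11.3–13.3 CPM in parental cells and rose from 27.4–30.6 to 48.4–50.9 CPM in MYC-ER cells, with 2.01 ± 0.16 (SE; edgeR adjusted p = 1.14e-09). With GC and length trends removed the interactions were −1.53 for OSBPL8, −1.49 for ZEB2, −1.53 for ROS1, −1.40 for SLC16A7, −1.46 for VGLL3 and 1.41 for H1-2, all still called.

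Genes of G2 and mitosis formed the list with the highest median interaction. Of 45 tested, 44 were called positive and none negative, beside 23.6% and 21.4% of all genes, and 40 were at least 2-fold. SMC4, a condensin subunit, was the exception at 0.16 ± 0.13 (SE; edgeR adjusted p = 0.348). The median interaction was 3.90. MYC-ER cells rose by a median of 3.92 while the parental median change was −0.17, and the median line difference went from −5.13 to −1.004, smaller in all 45. At the top stood UBE2C, BIRC5, KIF2C and CDC20, followed by AURKB, the passenger complex kinase, at 5.77 and MKI67, the Ki-67 coat of mitotic chromosomes, at 5.77. At the low end BUB3, a checkpoint protein, had 0.23 and ECT2, a regulator of cytokinesis, 0.49. With the GC trend removed all 45 were called positive, none negative.

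Promoters of mitotic genes are known to carry the cell cycle homology element bound by the DREAM and MuvB complexes, often written TTTGAA, and CCAAT boxes bound by NF-Y. RefSeq windows (GRCh38.p14, 250 bases before to 50 after each start) were found for 37 of the 45 genes. The letters TTTGAA on either strand were in 25 of the 37 windows (67.6%) and in 15.4% of all 27305 windows, and CCAAT was in 26 (70.3%) against 35.7%. Among the windows of tested genes TTTGAA was in 10.4% and CCAAT in 36.1%. Members with TTTGAA had a median interaction of 3.90 and those without it 4.18, so within the list these letters did not go with a larger interaction. The 4 printed here are members with interactions above 5 and show where the element lies. Each sequence is the 150 bases before the start, 5′ to 3′ on the gene's strand, with TTTGAA in capitals.
CDC20 (chr1:43358831-43358980, plus strand): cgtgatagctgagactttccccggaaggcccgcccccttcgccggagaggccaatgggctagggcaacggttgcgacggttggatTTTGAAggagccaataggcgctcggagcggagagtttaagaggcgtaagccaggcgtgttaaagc
MKI67 (chr10:128126424-128126573, minus strand): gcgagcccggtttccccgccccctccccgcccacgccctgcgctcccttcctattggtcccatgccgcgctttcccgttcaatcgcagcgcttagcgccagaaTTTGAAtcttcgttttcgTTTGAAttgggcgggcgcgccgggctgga
CENPA (chr2:26785906-26786055, plus strand): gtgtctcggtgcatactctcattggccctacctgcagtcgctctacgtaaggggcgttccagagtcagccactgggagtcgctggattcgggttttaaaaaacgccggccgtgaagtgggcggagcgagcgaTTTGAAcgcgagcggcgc
HMMR (chr5:163460482-163460631, plus strand): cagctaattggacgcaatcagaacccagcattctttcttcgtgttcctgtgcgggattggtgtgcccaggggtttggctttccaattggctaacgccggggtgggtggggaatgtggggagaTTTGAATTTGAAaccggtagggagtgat
CENPA, the histone of centromeres, had an interaction of 5.17 and HMMR, a spindle protein, 5.14. The element begins 65, 29, 18 and 22 bases before the start in this order, taking the copy nearest to it, and MKI67 and HMMR hold 2 copies each. A match gives the letters in the window and no evidence of binding.

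Genes of DNA replication and S phase moved in the same direction with a smaller median. Of 40 tested, 34 were called positive and 1 negative (2 with the GC trend removed or without the second parental library at 0 h), 27 at 2-fold or more, with a median of 1.32. The called shares were 85.0% and 2.5%, beside 23.6% and 21.4% of all genes. RRM2, the regulated subunit of ribonucleotide reductase, rose from 0.696, 0.868 and 1.03 to 22.4, 19.8 and 19.9 CPM in MYC-ER cells. Parental cells held 126, 154 and 143 and then 117, 132 and 143 CPM, far above MYC-ER cells at both times. Its interaction was 4.69 ± 0.15 (SE; edgeR adjusted p = 2.18e-16), and that of CDC45, a part of the replicative helicase, was 5.18 ± 0.11 (SE; edgeR adjusted p = 1.08e-18). MCM2, another helicase subunit, had 1.43 ± 0.09 (SE; edgeR adjusted p = 7.37e-11). The only negative member was GINS3, also of that helicase, with −0.58 ± 0.10 (SE; edgeR adjusted p = 6.94e-05). The list's median line difference was −2.78 at 0 h and still −1.39 at 48 h.

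Of 30 genes for homologous recombination and Fanconi repair, 22 were positive and 1 negative, with a median of 1.07. The called shares were 73.3% and 3.3%, beside 23.6% and 21.4% of all genes. EXO1, an exonuclease that resects breaks, had 4.61 ± 0.11 (SE; edgeR adjusted p = 5.42e-18), and RAD54L, a DNA motor protein of recombination, 3.35 ± 0.10 (SE; edgeR adjusted p = 2.11e-16). FANCM, the negative call, was at −0.44 with an adjusted p of 0.0470 by edgeR. It lost its call in most alternatives and was at 0.13 with GC and length trends removed. Among 18 cyclin-dependent kinase inhibitors, RB proteins and their partners, 11 were positive and 3 negative (median 0.42). These were 61.1% and 16.7%, beside 23.6% and 21.4% of all genes. With GC and length trends removed 5 were negative and the median was 0.26. E2F7, an E2F repressor made in S phase, had 1.94 ± 0.21 (SE; edgeR adjusted p = 1.74e-07) and CCND2, a D-type cyclin, 1.01 ± 0.06 (SE; edgeR adjusted p = 2.90e-11). The pocket proteins RB1 and RBL2 were negative, at −0.86 (−0.44 with GC and length trends removed) and −0.85. RB1 changed in parental cells, from 55.8–102 to 110.2–125 CPM, while MYC-ER cells held 70.7 to 74.6 and 61.7 to 63.2 CPM, a change that missed the threshold.

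**Figure D3:**
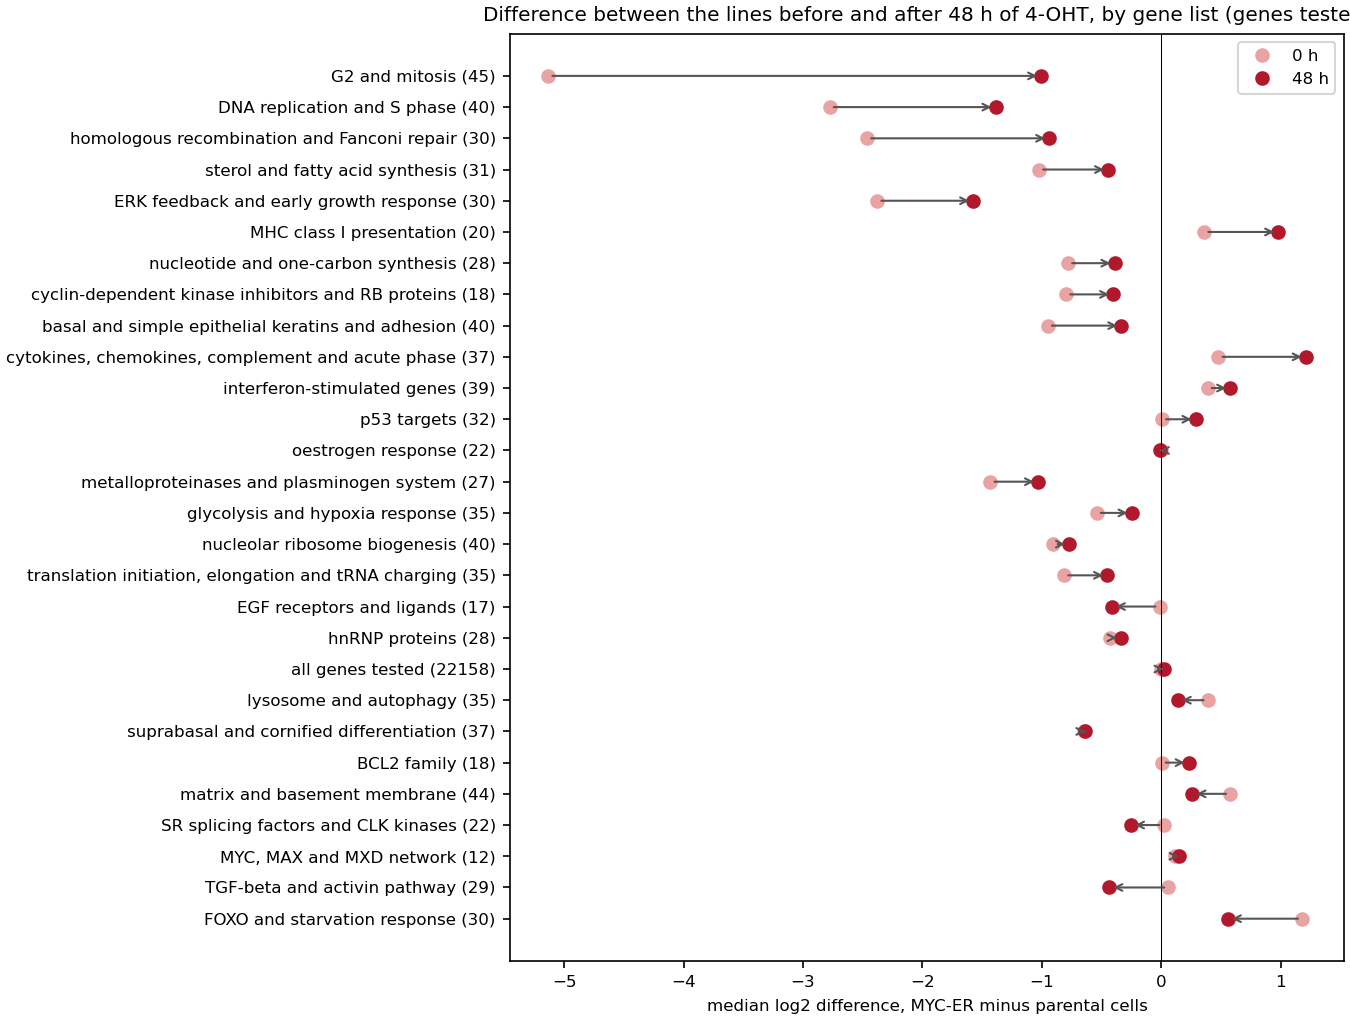
Median log2 difference of MYC-ER from parental cells over the tested members of each gene list (number in brackets) at 0 h (pale) and 48 h (dark), joined by an arrow, ordered by the median interaction. The G2 and mitosis list travels from −5.13 to −1.004, while the MHC class I and cytokine lists are among those that move away from 0.

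**Figure D4:**
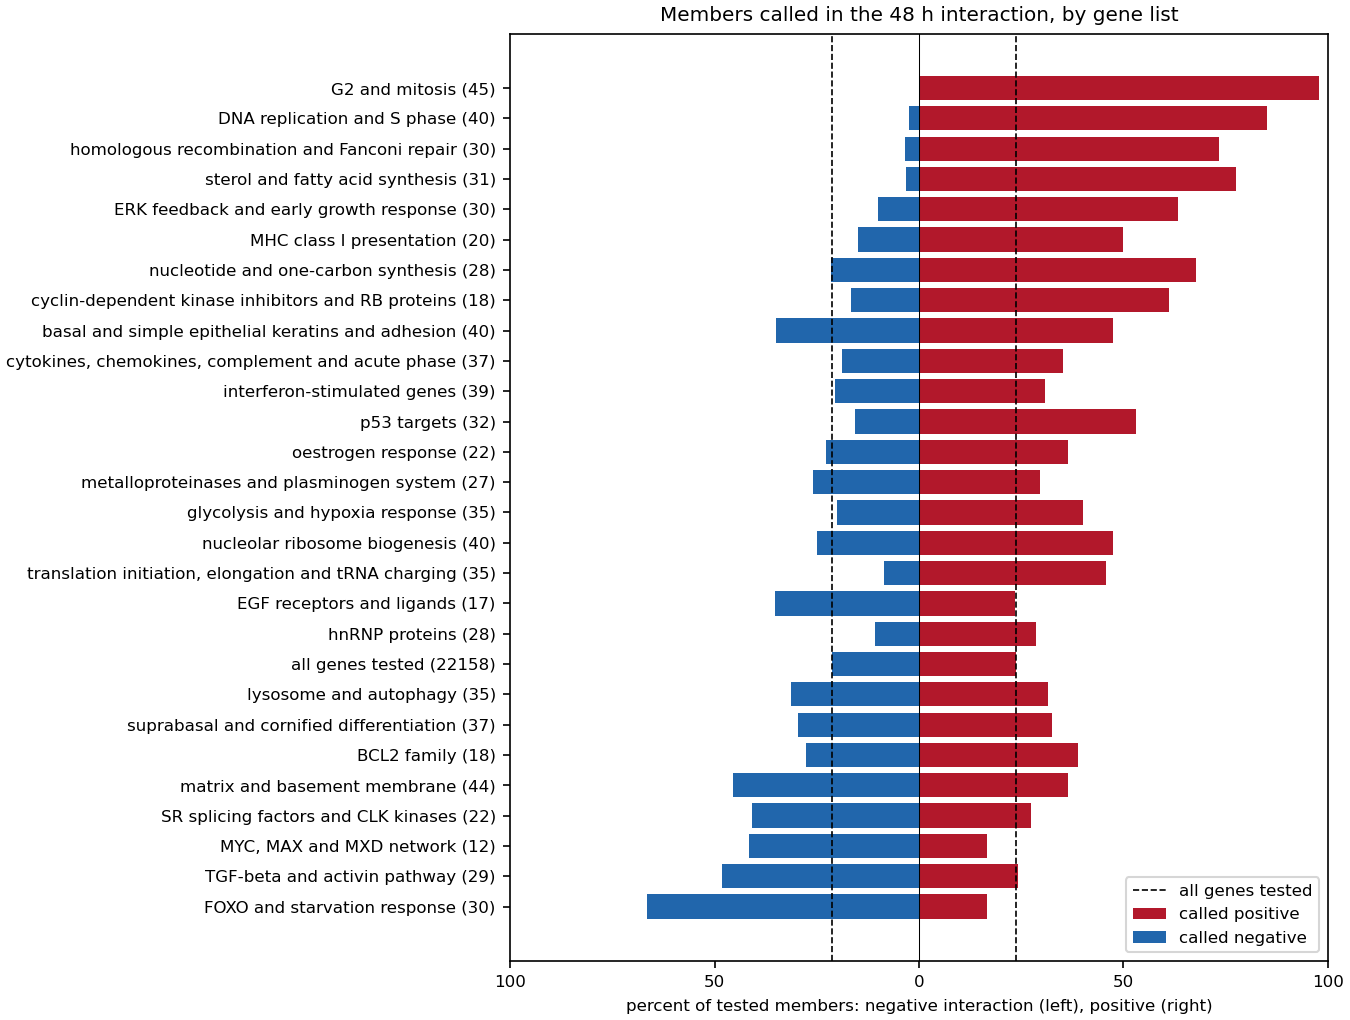
Percent of the tested members of each list called negative (left, blue) or positive (right, red) in the 48 h interaction, with dashed lines at the percents for all genes tested, 21.4 and 23.6. The G2 and mitosis, S phase, sterol and repair lists lie furthest right, and the FOXO and starvation list has the largest share on the left.

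Genes through which MYC is best known to act on growth showed mixed interactions at 48 h. In the MYC, MAX and MXD network 2 of 12 tested members were positive and 5 negative (16.7% and 41.7%, beside 23.6% and 21.4% of all genes). The counts became 5 and 3 with library size alone, and 4 were positive without the third parental library at 0 h. MXD3, an antagonist of MYC that is made in S phase, had 1.65 ± 0.14 (SE; edgeR adjusted p = 4.10e-09). The negative members were MYC (−0.62), MXI1 (−0.50), MGA (−0.42), MXD1 (−0.38) and MAX (−0.30); MGA was at 0.04 with GC and length trends removed. Of 40 nucleolar genes of ribosome biogenesis, 19 were positive and 10 negative, with a median of 0.18. These were 47.5% and 25.0%, beside 23.6% and 21.4% of all genes. With the GC trend removed 13 were positive and 10 negative, with a median of 0.02. The negative count rested on single libraries: it was 5 or 6 without the second or the third parental library at 48 h, the second MYC-ER library at 0 h, or the second or the third MYC-ER library at 48 h, and 4 with library size alone. The median was 0.12 without the third parental library at 0 h.

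FBL, the methyltransferase fibrillarin, had 1.28 ± 0.14 (SE; edgeR adjusted p = 1.49e-07), rising from 96.8–115 to 193–197 CPM in MYC-ER cells and falling from 153–217 to 131–156 CPM in parental cells. BOP1, an assembly factor of the large ribosomal subunit, had 1.15 ± 0.14 (SE; edgeR adjusted p = 1.28e-06). With GC and length trends removed FBL was at 0.81 and BOP1 at 0.66. UTP20 and DDX21, a processome scaffold and a nucleolar helicase, were negative at −0.92 and −0.72 (−0.45 and −0.39 with GC and length trends removed), and both rose in parental cells. The median line difference of the list was −0.90 at 0 h and −0.77 at 48 h. The E-box CACGTG, on either strand, lay in 15 of the 34 nucleolar windows found (44.1%) against 7.4% of all windows and 9.6% of the windows of tested genes. The median interaction was 0.18 with it and −0.05 without. This split was not repeated with the GC trend removed, and the part of GC content in it was not tested. NOP10, a small protein of the particles that modify ribosomal RNA, is printed with the box in capitals. Of the positive members searched, only NOP10 held the box in the 150 bases before its start, so it is not typical of these windows.
NOP10 (chr15:34343137-34343286, minus strand): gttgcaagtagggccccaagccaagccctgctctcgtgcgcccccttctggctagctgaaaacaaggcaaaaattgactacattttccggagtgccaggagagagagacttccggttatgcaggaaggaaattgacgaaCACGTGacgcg
NOP10 had an interaction of 0.39 ± 0.13 (SE; edgeR adjusted p = 0.0226).

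Nucleotide and one-carbon synthesis held 19 of 28 positive and 6 negative (median 0.47, and 0.31 with the GC trend removed). These were 67.9% and 21.4%, beside 23.6% and 21.4% of all genes. PHGDH, the first enzyme of serine synthesis, rose in MYC-ER cells from 0.766, 0.902 and 1.24 to 24.6, 23.3 and 21.99 CPM. Parental cells held 13.2, 8.99 and 14.2 and then 9.07, 11.7 and 10.3 CPM, so the lines changed order, with no overlap at 48 h. Its interaction was 4.82 ± 0.22 (SE; edgeR adjusted p = 1.77e-13). MTHFD1L, of the mitochondrial folate pathway, had 1.79 ± 0.09 (SE; edgeR adjusted p = 7.21e-13). PSAT1, the next enzyme of the serine pathway, was negative at −0.56 ± 0.06 (SE; edgeR adjusted p = 3.98e-07), as were the phosphoribosyl pyrophosphate synthetases PRPS2 (−1.36) and PRPS1 (−0.81). Translation factors and tRNA synthetases held 16 of 35 positive and 3 negative, or 45.7% and 8.6% (median 0.17, and 0.30 without the second parental library at 0 h). With GC and length trends removed 5 were negative. EIF4EBP1, an inhibitor of the cap-binding factor EIF4E, had 1.08 ± 0.16 (SE; edgeR adjusted p = 1.05e-05), and 0.43 with GC and length trends removed.

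Lipid synthesis was the most one-sided of the metabolic lists. Of 31 tested genes of sterol and fatty acid synthesis 24 were positive and 1 negative (2 with the GC trend removed or without the second parental library at 0 h), with a median of 0.75, and the median line difference went from −1.02 to −0.44. The called shares were 77.4% and 3.2%, beside 23.6% and 21.4% of all genes. FADS2, a desaturase of polyunsaturated fatty acids, rose from 23.5, 26.4 and 25.5 to 108, 105 and 99.2 CPM in MYC-ER cells. Parental cells held 234, 196 and 234 and then 240.4, 273 and 270.4 CPM and were the higher at both times. The interaction was 1.81 ± 0.11 (SE; edgeR adjusted p = 2.53e-11). MVD and EBP, enzymes of the mevalonate and late cholesterol pathways, had 1.73 and 1.33. SC5D, of the last steps of cholesterol synthesis, was the negative member at −0.52 ± 0.12 (SE; edgeR adjusted p = 0.00141), and at −0.22 with the GC trend removed.

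The glycolysis and hypoxia list held 14 of 35 positive and 7 negative (median 0.20; 0.02 with the GC trend removed, when with the replicate block added 11 were negative). Without the first parental library at 0 h, the third at 0 h or the first at 48 h the median was 0.13, 0.12 or 0.11. CA9, a carbonic anhydrase induced by hypoxia, rose from 0.151, 0.249 and 0.169 to 35.7, 36 and 32.3 CPM in MYC-ER cells. In parental cells it went from 0.368, 0.251 and 0.488 to 0.910, 3.04 and 2.39 CPM, a rise that also passed its test. Its interaction was 4.998 ± 0.78 (SE; edgeR adjusted p = 2.37e-05), and EGLN3, an oxygen-sensing hydroxylase, had 2.47 ± 0.46 (SE; edgeR adjusted p = 1.65e-04). CA12, a related carbonic anhydrase, was negative at −1.33 ± 0.08 (SE; edgeR adjusted p = 1.46e-11).

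The FOXO and starvation list was mostly negative. Of 30 tested, 20 were negative and 5 positive, with a median of −0.65, and the median line difference went from 1.18 to 0.56. The called shares were 66.7% negative and 16.7% positive, beside 21.4% and 23.6% of all genes. FOXO3, a transcription factor restrained by growth factor signalling, fell from 358, 357 and 333 to 151, 151 and 152 CPM in MYC-ER cells. Parental cells rose from 74.9, 84.1 and 57.3 to 94.9, 94.6 and 98.3 CPM, and MYC-ER cells stayed the higher at 48 h. The interaction was −1.62 ± 0.13 (SE; edgeR adjusted p = 1.64e-09). FOXO1 had −1.17 and KLF9, a Krüppel-like factor, −1.15. Against the list, PIK3IP1, a negative regulator of PI3-kinase, was at 1.92 ± 0.13 (SE; edgeR adjusted p = 7.37e-11), and the pseudokinases TRIB3 and TRIB1 at 1.70 and 1.38. The lysosome and autophagy list held 11 of 35 in each direction (31.4%, beside 23.6% positive and 21.4% negative of all genes). With the GC trend removed it held 8 positive and 20 negative, and with GC and length trends removed 7 and 17.

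Epithelial keratins and adhesion genes split. Of 40, 19 were positive and 14 negative (47.5% and 35.0%, beside 23.6% and 21.4% of all genes). EPCAM, an adhesion molecule and a marker of luminal breast cells, rose from 2.16, 1.91 and 1.73 to 38.6, 39.8 and 38.3 CPM in MYC-ER cells. Parental cells held 6.52, 5.64 and 6.71 and 6.76, 6.51 and 6.84 CPM, so MYC-ER cells were the lower line at 0 h and the higher at 48 h. Its interaction was 4.24 ± 0.11 (SE; edgeR adjusted p = 1.56e-17). CLDN1, a claudin of tight junctions, had 3.07 ± 0.13 (SE; edgeR adjusted p = 7.02e-14), and the basal keratin KRT17, which has close pseudogenes, 2.23 ± 0.16 (SE; edgeR adjusted p = 5.03e-10). The desmogleins DSG3 and DSG2 were negative at −1.59 and −1.37. Summed basal markers stood at 14936 to 15421 CPM in untreated MYC-ER libraries and 10809 to 11480 CPM at 48 h, and in parental libraries at 24487 to 30448 and then 19457 to 23800.4 CPM. In MYC-ER cells the sum held mostly KRT5, with means of 12528 CPM at 0 h and 6922 CPM at 48 h, while KRT14 went from a mean of 626 to 951 CPM, KRT17 from 323 to 1145 CPM and ITGB4 from 651 to 1140.0 CPM. CDH3 went from a mean of 436 to 335 CPM, ITGA6 from 441 to 429 CPM and TP63 from 141 to 139 CPM. Interactions were negative for KRT5 (−0.50), TP63 (−0.60), ITGA6 (−0.48) and CDH3 (−0.26). They were positive for KRT14 (1.26), KRT17 (2.23) and ITGB4 (0.61). Summed luminal markers went from 291 to 319 CPM to 542 to 567 CPM, where parental libraries held 338 to 482 CPM and then 290 to 352 CPM. The part of these sums in the list's values was not tested.

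Suprabasal and cornified differentiation genes were called in both directions, 12 of 37 positive and 11 negative, beside 23.6% and 21.4% of all genes. The median was −0.04 and changed sign with the scaling and with the library left out, from −0.31 without the first to 0.24 without the second parental library at 48 h. KRT10 was the most negative of the members that met the limits on level, and KRT1, its partner keratin, had −1.08 ± 0.19 (SE; edgeR adjusted p = 8.58e-05). On the positive side, SPRR1B, a cornified envelope precursor, had 2.17 ± 0.18 (SE; edgeR adjusted p = 3.84e-09) and GRHL3, a grainyhead factor of barrier formation, 1.68 ± 0.15 (SE; edgeR adjusted p = 7.24e-09). Both remained below parental cells at 48 h, by 2.29 and 2.90 log2 units.

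Matrix and basement membrane genes were also called in both directions, 16 of 44 positive and 20 negative (median −0.06). These were 36.4% and 45.5%, beside 23.6% and 21.4% of all genes. The median was −0.28 with the GC trend removed, and from −0.25 without the first parental library at 0 h to 0.08 without the third at 48 h. FN1, fibronectin, rose from 0.244, 0.380 and 0.368 to 3.51, 3.14 and 3.60 CPM in MYC-ER cells. Parental cells held 38.3, 45.1 and 36.9 and then 43.1, 42.9 and 41.6 CPM, above every MYC-ER library. The interaction was 3.28 ± 0.19 (SE; edgeR adjusted p = 1.49e-11), and TNC, the matrix protein tenascin-C, had 2.65 ± 0.13 (SE; edgeR adjusted p = 1.10e-12). Among negative members, ABI3BP, a matrix protein of low level in parental cells (4 to 34 counts a library), had −5.004 ± 0.60 (SE; edgeR adjusted p = 7.35e-07), and −5.73 without the second parental library at 0 h. FBLN5 and NID1 are described above. The fibroblast markers COL1A1 and DCN were negative too, at −1.05 and −1.75, and PDGFRB, a further marker of that list, was positive at 1.26 (edgeR adjusted p = 0.00309) with means of 0.678 to 1.32 CPM. The 7 fibroblast markers summed to 369.6 to 377 CPM in untreated MYC-ER libraries, 121 to 130.2 CPM at 48 h, and 93.8 to 133 CPM in parental libraries, while COL1A2, COL3A1 and PDGFRA were each at or below a mean of 0.0327 CPM in all 4 groups. The part of these sums in the list's values was not tested.

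Among metalloproteinases and the plasminogen system 8 of 27 were positive and 7 negative (29.6% and 25.9%), close to the 23.6% and 21.4% of all genes. MMP2, gelatinase A, rose from 0.992–1.30 to 10.2–10.9 CPM in MYC-ER cells beside parental libraries of 2.58 to 2.99 and 3.42 to 4.24 CPM, with 2.73 ± 0.21 (SE; edgeR adjusted p = 1.09e-09). PLAU, urokinase, had 1.64 ± 0.10 (SE; edgeR adjusted p = 5.12e-11) and TIMP1, a metalloproteinase inhibitor, 1.22 ± 0.13 (SE; edgeR adjusted p = 1.86e-07), the latter at 0.64 with GC and length trends removed. SERPINB5, the serpin maspin of mammary epithelium, was negative at −0.79 ± 0.08 (SE; edgeR adjusted p = 4.28e-08).

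For antigen presentation and cytokines, unlike the proliferation lists, the median line difference was wider at 48 h. It was wider in other lists too, the interferon-stimulated genes among them (0.39 to 0.58). By member, the difference was smaller at 48 h in 19 of 37 cytokine and complement genes and in 7 of 20 MHC class I genes. MHC class I presentation held 10 of 20 positive and 3 negative (median 0.48, 0.25 with GC and length trends removed and 0.31 with the 4 groups fitted alone), and its median line difference went from 0.36 to 0.98. HLA-F, a class I heavy chain, held 19.3, 21.3 and 21.7 CPM in MYC-ER cells at 0 h and 41.1, 41.7 and 43.7 CPM at 48 h. Parental cells held 17.6, 14.5 and 19.6 and then 10.3, 13.5 and 13.4 CPM. The lines overlapped at 0 h and not at 48 h, MYC-ER cells having risen and parental cells fallen. The interaction was 1.49 ± 0.14 (SE; edgeR adjusted p = 3.20e-08), and 0.98 with GC and length trends removed. Class I genes are similar in sequence and polymorphic, so their split is uncertain. PSMB10, an immunoproteasome subunit, had 1.14, and 0.55 with GC and length trends removed. ERAP1, the peptide trimming enzyme, and TAP2, of the peptide transporter, were negative at −1.27 (−0.84 with GC and length trends removed) and −0.61.

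The cytokine, chemokine, complement and acute phase list held 13 of 37 positive and 7 negative, a median of 0.32 and a median line difference of 0.48 at 0 h and 1.21 at 48 h. The called shares were 35.1% and 18.9%, beside 23.6% and 21.4% of all genes. The median interaction rested on parental libraries at 0 h: it was 0.07 without the third of them (where the median of all genes was 0.03) and 0.21 without the first, and 0.15 over members with at least 10 counts in every library. CR2 had the largest interaction of members above 10 CPM. CSF3, a granulocyte growth factor, had 1.03 ± 0.13 (SE; edgeR adjusted p = 2.50e-06) and IL32, a proinflammatory cytokine, 0.86 ± 0.16 (SE; edgeR adjusted p = 1.21e-04). With GC and length trends removed they were at 0.50 and 0.30. CXCL14, a chemokine of normal epithelium, was negative at −1.47 ± 0.24 (SE; edgeR adjusted p = 3.79e-05), as were the classical complement proteases C1R (−0.94) and C1S (−0.85), which remained 4.00 and 3.58 log2 units above parental cells at 48 h. ITGAM, a leukocyte integrin, had an interaction of 1.89 while PTPRC stayed at 0. Of the other detected leukocyte markers, CD14 had 0.62 and CD68 −0.59. The leukocyte list summed to 20.7 to 23.5 CPM in untreated MYC-ER libraries and 14.4 to 17.1 CPM at 48 h. In parental libraries it summed to 21.7 to 22.1 and then 12.8 to 13.5 CPM. The part of leukocyte markers in the list's values was not tested. Interferon-stimulated genes held 12 of 39 positive and 8 negative (30.8% and 20.5%, near the 23.6% and 21.4% of all genes). With the GC trend removed it was 11 and 3, and the median went from 0.31 to 0.16. IRF1, an interferon-induced regulator, rose from 32.9–34.8 to 70.5–71.9 CPM in MYC-ER cells, with 0.99 ± 0.09 (SE; edgeR adjusted p = 7.84e-09), while parental libraries held 11.7 to 13.9 and 13.1 to 14.2 CPM.

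Targets and feedback inhibitors of ERK signalling were mostly positive, 19 of 30 with 3 negative (median 0.72), the latter 5 with the GC trend removed. ETV4 and ETV5, ETS factors induced by ERK, began far below parental cells. ETV4 was at 0.0522, 0.0794 and 0.111 CPM in untreated MYC-ER cells (9 to 19 counts a library) and at 1.97, 1.80 and 1.79 CPM at 48 h, against 26.98 to 36.7 and 25.8 to 31.6 CPM in parental cells. Its interaction was 4.67 ± 0.20 (SE; edgeR adjusted p = 4.62e-14), and ETV5 had 3.04 ± 0.14 (SE; edgeR adjusted p = 2.73e-13). FOS and FOSL2, AP-1 subunits, were negative at −1.60 and −1.26. Among EGF receptors and ligands 4 of 17 were positive and 6 negative (23.5% and 35.3%, beside 23.6% and 21.4% of all genes). The ligand AREG, amphiregulin, had 1.67 ± 0.12 (SE; edgeR adjusted p = 4.60e-10), the ligand EPGN, epigen, −2.35 ± 0.13 (SE; edgeR adjusted p = 3.75e-12), and EGFR itself −0.54 ± 0.14 (SE; edgeR adjusted p = 0.00407).

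TGF-beta and activin genes leaned negative, with 14 of 29 negative and 7 positive (48.3% and 24.1%, beside 21.4% and 23.6% of all genes). Their median of −0.23 became −0.12 with library size alone and 0.05 with GC and length trends removed. The co-receptor TGFBR3 fell from 135–147 to 55.98–57.5 CPM in MYC-ER cells and rose from 14.1–27.3 to 30.7–34.8 CPM in parental cells, with −1.96 ± 0.19 (SE; edgeR adjusted p = 3.86e-08). TGFBI, a secreted target of the pathway, fell from 11418–11700.4 to 3693–4178 CPM in MYC-ER cells, with −1.26 ± 0.08 (SE; edgeR adjusted p = 6.64e-11). INHBA, the activin subunit, rose in both lines, with 1.33 ± 0.25 (SE; edgeR adjusted p = 1.87e-04).

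The interaction at 48 h was then set against that at 24 h, in a contrast with no 0 h library: the MYC-ER change from 24 to 48 h less the parental change. Of 22158 genes, 8275 (37.3%) passed, 4027 positive and 4248 negative. All 40 S phase genes were negative in it, as were 44 of 45 G2 and mitosis genes and 39 of 40 nucleolar genes, none of the S phase and nucleolar genes being positive. The median interactions at 8, 24 and 48 h, which share the 0 h libraries, were 0.75, 5.31 and 3.90 for G2 and mitosis. For the nucleolar list they were 1.40, 0.97 and 0.18, and for cytokines −0.72, −1.50 and 0.32. Mitotic genes therefore stood highest at 24 h, the nucleolar ones at 8 h, and the cytokine median was below 0 at 8 and 24 h.

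In the same contrast 25 of 37 cytokine and complement genes were positive and 3 negative, 14 of 20 MHC class I genes positive and 2 negative, and 18 of 30 FOXO and starvation genes positive and 3 negative. Of all 22158 genes, 4027 were positive and 4248 negative in it. IL32 stood out among cytokines with 4.41 (edgeR adjusted p = 2.13e-14), its interaction being −3.56 at 24 h and 0.86 at 48 h. IRF1 had 2.38 in this contrast and HLA-F 2.01. Sterol and fatty acid synthesis had a median near 0 in this contrast (−0.08), but its calls leaned negative, with 4 genes positive and 10 negative of 31.

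**Figure D5:**
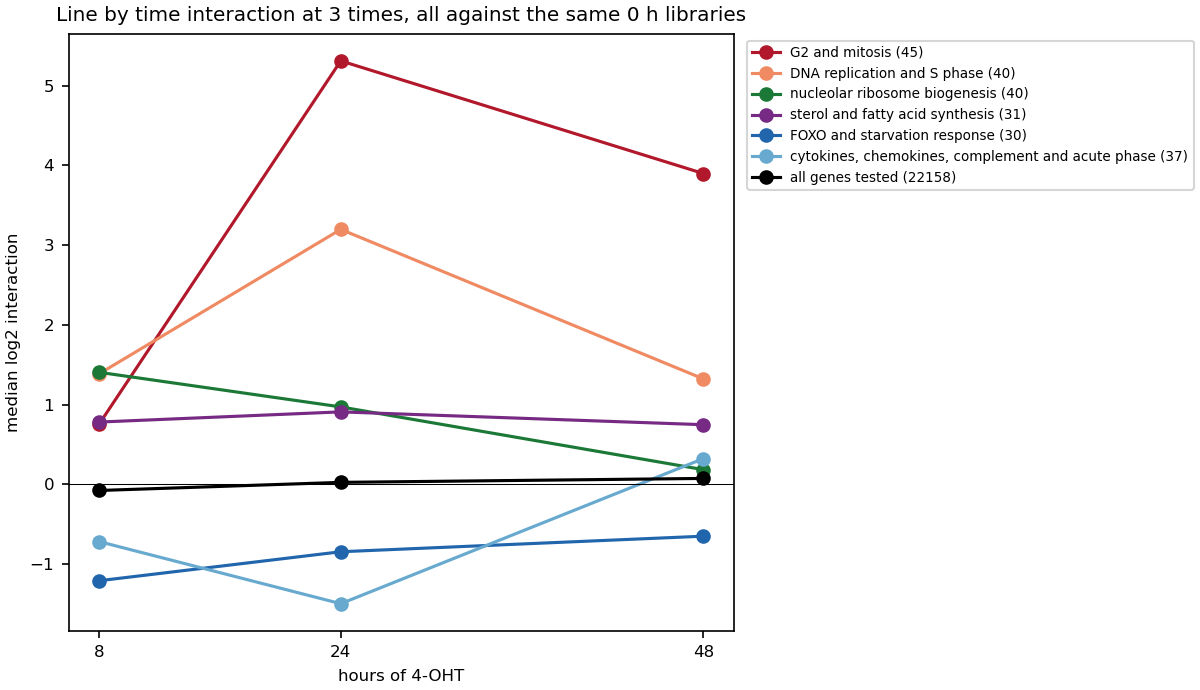
Median log2 interaction of 6 gene lists and of all genes tested (vertical) at 8, 24 and 48 h of 4-OHT (horizontal), every point measured against the same 0 h libraries. The G2 and mitosis list peaks at 5.31 at 24 h and is at 3.90 at 48 h, the nucleolar list falls to 0.18, and the cytokine list ends at 0.32, a value that was 0.07 without the third parental library at 0 h.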

How the data were processed

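Total RNA from 24 cultures (2 lines at 4 times, 3 replicates each) was sequenced as poly(A)-selected, strand-specific libraries with 150-base paired reads, 3 libraries to a lane, per the labels' protocols, which do not say which of them shared one. The submitters' processing notes name Trimmomatic 0.39, STAR, StringTie 2.1.3b and the build GRCh38, with no role or order. The deposited table holds whole-number, unnormalised counts per gene for 60668 rows with versioned Ensembl identifiers. If StringTie made them, they derive from coverage and are estimates. The annotation release, the use of strand and the treatment of reads that match several genes are not given in the sources used here, so close paralogues and overlapping genes are uncertain.

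From these counts, genes with enough reads by edgeR's filterByExpr (22158) were scaled by TMM and fitted with edgeR 4.0.16 (R 4.3.3), quasi-likelihood F test, 1 mean per group over all 24 libraries (16 residual degrees of freedom, common biological variation 0.151), two-sided, Benjamini-Hochberg adjusted over all genes tested, at a threshold of 0.05. SE is an approximate one, taken as the absolute log2 fold divided by the square root of the F statistic. CPM values are TMM-scaled. A count of 0 allows up to 3 counts, at most 0.0219 CPM in the smallest library, for counting error only. On simulated counts with known changes for the 48 h interaction (21536 genes), 46% of genes changed 1.41-fold, 94% changed 2-fold, 100% changed 4-fold and 98% changed 8-fold were called, and 7 of 21336 unchanged genes. Each simulated gene had the same mean in every group before the change, and changed genes had at least 1 CPM. No line difference and no GC or length trend was simulated, so these values do not give the rate of false calls in the data.

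Members, gene lists and naming rules were chosen with earlier results of these data known, so no list count is independent support. Named genes were the 10 largest positive and 10 largest negative called interactions (at least 10 CPM in the highest group and 10 counts in each library), up to 3 members of each list in each direction, the 5 largest opposite changes, the 5 largest with the parental change the larger, MYC and ESR1; some of these are not reported here. SMC4, BUB3, ECT2, AURKB, MKI67, CENPA, HMMR, MCM2, NOP10, MXD1, MAX, EGFR, COL1A1, DCN and ITGAM were named after their values were seen. Coordinates and promoter windows are from RefSeq GRCh38.p14. GC content and length are those of the longest GENCODE 29 transcript (98.0% of the genes tested). Alternatives were other scalings, other filters, DESeq2 1.42.0, the 4 groups alone, a replicate block, GC and length trends removed, and each library left out in turn.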

Additional observations from a re-analysis of the deposited data

Results flagged for a closer look

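For 23 of the 29 genes named for their size or pattern, the interaction at 48 h differed from that at 24 h by the test of the difference itself (edgeR adjusted p under 0.05 over all 22158 genes). The parental and MYC-ER libraries at 0 h do not enter this contrast, and 37.3% of all genes passed it. The 48 h libraries by which these genes were chosen do enter it, and the genes also met limits on level. The count of 23 is therefore not independent of the choice of genes. The 8 proliferation genes named had lower interactions at 48 h than at 24 h, with differences of −0.83 for PIF1, −1.06 for UBE2C, −0.87 for TROAP, −1.19 for NEK2, −1.72 for BIRC5, −1.26 for KIF2C, −0.86 for CDC20 and −1.56 for TK1 on the log2 scale. CR2 was lower too, at −1.68, from an interaction of 8.42 at 24 h. Galectin-7 genes were higher, by 2.30 for LGALS7B and 2.20 for LGALS7, and so were CALML3 at 1.14, ESPN at 1.87 and H1-2 at 2.21. Most genes of large negative interaction were less negative at 48 h, by 0.66 for FBLN5, 0.88 for MMP7, 1.90 for NALCN, 1.86 for MME, 1.90 for C5AR2, 1.61 for KRT16 and 1.85 for HECW2. ROS1 was less negative by 0.57, and ZEB2 was more negative, at −0.59. H1-2 had an interaction of −0.21 at 24 h and 2.01 at 48 h.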

How the results depend on the processing

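The count of called interactions was 9970 in the fit described and 8606 to 10317 under other scalings, filters, DESeq2, GC and length corrections and the 4 groups alone. Leaving out 1 library in turn it was 9149 to 11073, the highest without the second parental library at 0 h, and for at least 2-fold calls 2870 to 4008. None of these moved the counts by over 1.5 times, but the genes called were not all shared: 7887 of the 9636 called with the GC trend removed were also called without that step, and 7317 of the 9373 with GC and length trends removed. Of 3791 alternative values for the 165 named genes, 3695 kept direction and call, 85 lost the call and 11 changed sign. SYNCRIP and HNRNPR went to 0.11 and 0.12 with the GC trend removed, to 0.11 and 0.12 with it and the replicate block, and to 0.36 and 0.41 with GC and length trends removed. With the last setting FANCM went to 0.13, CDK6 to 0.16, MGA to 0.035, ZMAT3 to 0.082 and ESR1, which was not called, to 0.10. Replicate numbers did not pair the libraries: same-numbered libraries of the 4 groups correlated by 0.009 on average (−0.115 to 0.219), and 6 of 12 lay closest to their own number. With the replicate block 9881 genes were called, 9750 of them shared. The limits are 3 libraries a group, replicates of unstated independence and a parental change that follows GC content. Each gene's estimate of spread was shared by all groups, though the lines were not equally spread. Over all genes tested, the SD between libraries of the mean log2 CPM was 0.0036 at 0 h and 0.0084 at 48 h in MYC-ER cells. In parental cells it was 0.024 and 0.047. The smallest library held 136860029 counts.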

Other observations

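Genes of cell death and damage response were called in both directions, as all genes were (23.6% positive and 21.4% negative). Of 18 BCL2 family genes 7 were positive and 5 negative, the latter 8 with GC and length trends removed. The death effectors and BH3 proteins BAX, BIK and BBC3 (PUMA) were positive, with interactions of 1.21 ± 0.12 (SE; edgeR adjusted p = 5.59e-08), 1.27 and 1.25. With GC and length trends removed these were 0.65, 0.72 and 0.67. The BH3 proteins BMF and BCL2L11 (BIM) were negative at −0.93 ± 0.17 (SE; edgeR adjusted p = 1.05e-04) and −0.72, and so was the survival protein MCL1 at −0.45, which rose in parental cells. BMF fell from 38.8–41.7 to 15.1–15.6 CPM in MYC-ER cells and stayed above parental libraries of 1.45 to 1.67 CPM. Of 32 p53 targets 17 were positive and 5 negative, the latter 10 without the second parental library at 0 h and 2 with library size alone. PLK3, a stress-responsive polo kinase, had 1.81 ± 0.11 (SE; edgeR adjusted p = 1.55e-11) and FDXR, a mitochondrial reductase, 1.25 ± 0.12 (SE; edgeR adjusted p = 2.38e-08) (0.81 with GC and length trends removed), while SESN1, a sestrin, was at −0.79.

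Splicing factors showed small interactions. SR proteins and CLK kinases held 6 of 22 positive and 9 negative (27.3% and 40.9%, beside 23.6% and 21.4% of all genes). With the GC trend removed 9 were positive and 5 negative. SRSF3 rose from 95.7–102 to 147–157 CPM in MYC-ER cells, with 0.76 ± 0.06 (SE; edgeR adjusted p = 4.62e-09), and SRRM2, a scaffold of nuclear speckles, was at −1.01 ± 0.11 (SE; edgeR adjusted p = 2.17e-07). Of 28 hnRNP proteins 8 were positive and 3 negative (28.6% and 10.7%, beside 23.6% and 21.4% of all genes). With GC and length trends removed 17 were positive and 2 negative. The negative count was 5 without the second parental library at 0 h and 1 without the third parental library at 48 h or the second MYC-ER library at 0 h. HNRNPA1, which has many processed pseudogenes, rose from 592, 682 and 641 to 1599.8, 1545 and 1510.2 CPM in MYC-ER cells beside parental libraries of 1362 to 1521 and 1256 to 1477 CPM, with 1.36 ± 0.09 (SE; edgeR adjusted p = 4.09e-11). Among 22 oestrogen response genes, read because the fusion is switched by an oestrogen receptor ligand, 8 were positive and 5 negative. These were 36.4% and 22.7%, beside 23.6% and 21.4% of all genes. STC2, a secreted glycoprotein, had 1.65 ± 0.10 (SE; edgeR adjusted p = 2.50e-11) and NRIP1, a nuclear receptor corepressor that rose in parental cells, −1.26 ± 0.21 (SE; edgeR adjusted p = 5.43e-05) (−0.72 with GC and length trends removed); PGR was at 0 in all 12 libraries.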
